A study of Mus musculus with 23 samples.

Results

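Rasgrf1 was followed through RNA-seq of 23 whole mouse embryos, as 1 of the 26183 genes in the count tables. The gene encodes a guanine nucleotide exchange factor, a protein that loads Ras and Rac with GTP and so switches them on, and that is best known from neurons. It is an imprinted gene. In imprinting, DNA methylation laid down in one germ line marks the allele of one parent, and at Rasgrf1 that methylation sits on the paternal allele, in a control region upstream of the gene. The methylated allele is the one that is transcribed. ZFP57 is a KRAB zinc finger protein that binds a methylated hexamer, TGCCGC, and keeps such methylation through development.

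The embryos were collected at E13.5 and were hybrids of 129 mothers and DBA fathers. The mothers and fathers carried a deleted Zfp57 allele, and the groups differ in where the gene was lost. M+Z+ embryos had Zfp57 in the oocyte (M) and in the zygote (Z), M-Z+ embryos lacked it in the oocyte but received a functional copy from the father, and M-Z- embryos lacked it in both. The titles write Zfp57-/+ for M+Z+ as well as M-Z+, so M+Z+ embryos may carry 1 deleted allele. There were 6, 3 and 4 females and 4, 3 and 3 males of these genotypes, 1 library per embryo, and no litter is given in the labels. Because each library is a whole embryo, fewer Rasgrf1-expressing cells and less Rasgrf1 RNA per cell cannot be told apart.

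The libraries held 15.2 to 24.1 M counted reads. Zfp57 was counted in every embryo, at 25.5 to 35.3 CPM (a gene's reads per 1e6 counted reads) in M-Z- and 52.7 to 99.1 CPM in the others, without overlap between them. Which exons the deletion removes was not analysed here, so these reads check the order of the groups and not the loss of the protein. Y-linked transcripts had 0 reads in every library labelled female, and each library labelled male had at least 499 reads of Uty. No library stood against its label in these checks. They cannot tell M+Z+ from M-Z+ embryos, whose Zfp57 levels overlap.

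Rasgrf1 lies on chromosome 9 (mm9, chr9:89804613-89921817, plus strand), spans 117 kb and has 4729 bases of exon in the tables. The 250 bases before its annotated start, chr9:89804363-89804612, are shown because they hold the promoter side of the counted transcript. CpG dinucleotides are in capitals, on the plus strand of mm9, and the RefSeq promoter of Rasgrf1 (GRCm38.p6) begins with the same bases.

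Rasgrf1 start region: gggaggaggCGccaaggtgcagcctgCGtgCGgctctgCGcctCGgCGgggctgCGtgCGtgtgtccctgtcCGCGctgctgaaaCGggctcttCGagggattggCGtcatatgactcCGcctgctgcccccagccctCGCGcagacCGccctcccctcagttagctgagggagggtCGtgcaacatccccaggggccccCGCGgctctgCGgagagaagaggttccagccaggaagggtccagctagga

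This stretch holds 21 CpG and is 69.2% G or C. Of 32851 RefSeq upstream stretches of the same length, 83.7% have fewer CpG. It has 0 copies of TGCCGC on either strand (GCGGCA on the reverse), and 8.68% of the RefSeq stretches hold at least 1.

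The hexamer is frequent farther upstream. The 50 kb before the start contain 15 copies, and 6 of these fall in a single stretch of 300 bases, chr9:89774432-89774731, whose centre is 30.0 kb before the start. It overlaps the interval that the study examined as the control region. The stretch is printed because it is where the protein lost in these embryos has its letters, with each TGCCGC in capitals on the plus strand of mm9.

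Rasgrf1 upstream stretch: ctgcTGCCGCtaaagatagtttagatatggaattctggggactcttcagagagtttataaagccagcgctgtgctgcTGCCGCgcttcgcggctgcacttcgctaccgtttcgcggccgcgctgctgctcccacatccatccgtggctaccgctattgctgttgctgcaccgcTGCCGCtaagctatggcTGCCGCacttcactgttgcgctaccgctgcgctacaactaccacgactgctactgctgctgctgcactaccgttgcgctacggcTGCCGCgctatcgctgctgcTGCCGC

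It holds 28 CpG and is built from imperfect repeats of short units. When chromosome 9 was divided into 402345 stretches of the same length, 1.99% had at least 1 copy of the hexamer on either strand and only 1 had as many as 6. That one starts at position 110147701, away from Rasgrf1. The stretch at Rasgrf1 was placed to catch the most copies while those of the chromosome were laid end to end, so the shares are not like for like. A match of letters is not a binding site, and neither binding nor methylation was measured in these files.

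Rasgrf1 was a rare transcript in every embryo. The 23 libraries held 352 of its reads in all, 3 to 28 per embryo. Per transcript length its level was 0.0758 to 0.748 TPM, and 0 embryos exceeded 1 TPM. Among the genes detected in a library it ranked between the 2.37th and 15.7th percentile of TPM. At this depth a single read is worth 0.0415 to 0.0660 CPM, so counting error is a large share of each value below.

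In female M+Z+ embryos the CPM values were 0.836, 1.10, 0.857, 0.839, 0.834 and 1.15, from 14 to 21 reads each. In female M-Z+ embryos they were 1.23, 0.805 and 0.864. In female M-Z- embryos they were 0.196, 0.158, 0.343 and 0.445, from 4, 3, 6 and 9 reads. Each of the 4 M-Z- females was below each of the other 9 females.

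The male M+Z+ embryos had 1.16, 1.35, 0.930 and 1.21 CPM, and the male M-Z+ embryos had 1.63, 1.52 and 0.816 CPM. The male M-Z- embryos had 0.315, 0.367 and 1.10 CPM, from 5, 6 and 18 reads. The first 2 of these were below every male of the other genotypes. The third, replicate 3, lay inside the M+Z+ range.

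**Figure D1:**
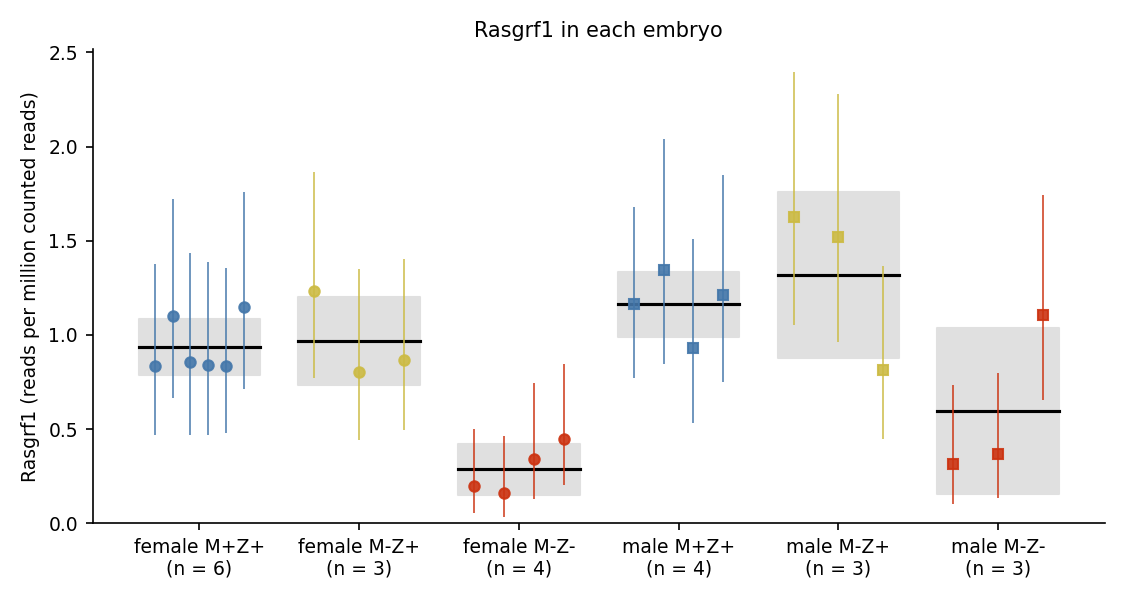
Rasgrf1 in each embryo, in CPM. Each point is an embryo with its exact 95% Poisson interval, which covers counting error only, and the bar and grey band are the mean and SD of the group. The 4 female M-Z- embryos sit between 0.158 and 0.445 CPM, and male M-Z- replicate 3 sits at 1.10 CPM.

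Rasgrf1 fell in female M-Z- embryos. The mean was 0.285 ± 0.133 CPM (SD, n = 4) against 0.936 ± 0.148 (n = 6) in female M+Z+, or 30.5% of it. The log2 change was -1.69 ± 0.32 (SE), with a 95% interval of -2.37 to -1.02 and an adjusted p of 0.0131 in edgeR's quasi-likelihood test. In that comparison 0.563% of 16871 tested genes were called at an adjusted p below 0.05 and a log2 change of at least 0.5, and 0.279% were called lower. The exact two-sided permutation test on mean CPM gave p = 0.00476, the smallest that 4 against 6 embryos allow, and 0.0229 after adjustment over 12 comparisons. The edgeR call was lost without female M-Z- replicate 2, when the change was -1.50 with an adjusted p of 0.0616, and with the M+Z+ embryos numbered 4 and above only (-1.69, adjusted p = 0.0563).

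In males the same comparison did not pass. The means were 0.595 ± 0.442 CPM (SD, n = 3) in M-Z- and 1.16 ± 0.174 (n = 4) in M+Z+, a log2 change of -0.92 ± 0.42 with an adjusted p of 0.291 in edgeR. Here 0.39% of 16664 tested genes were called, and 0.126% were called lower. The 95% interval was -1.83 to -0.01, so a fall as deep as that of the females lies inside it. The exact two-sided permutation p was 0.0571, where 3 against 4 embryos allow 0.0286 at the least. Without replicate 3 the log2 change was -1.69 and the adjusted p 0.0365 in edgeR. That embryo was singled out for its value, and removing the highest of the 3 M-Z- values deepens the fall by construction. Over all 10 omissions of a single embryo the change lay between -1.69 and -0.61 and the adjusted p between 0.0365 and 0.572. Only 1 of these omissions passed.

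With both sexes in a single fit, and sex as a term, Rasgrf1 was lower in M-Z- by a log2 change of -1.32 ± 0.26, at an adjusted p of 0.00215 in edgeR. In that fit 2.19% of 17139 genes were called, with 1.24% lower and 0.957% higher. Of the 7 M-Z- embryos, 6 were below the lowest M+Z+ embryo of their sex. When labels were permuted within each sex, the exact two-sided p was 0.000272, or 0.00327 after adjustment. The call held with each embryo left out in turn, when the change lay between -1.69 and -1.20 and the adjusted p reached 0.00715 at most. It was lost when the M+Z+ group was reduced to the embryos numbered 4 and above, where the change was -1.38 (adjusted p = 0.0606). Of the M+Z+ males this leaves replicate 4 alone.

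M-Z- embryos were also compared with M-Z+ embryos, which asks what the father's functional copy in the zygote adds when the oocyte had none. Rasgrf1 was lower in M-Z- by -1.39 ± 0.28 over both sexes (adjusted p = 0.00856 in edgeR), a comparison in which 0.566% of genes were called. Within females the change was -1.73 ± 0.36 and did not pass in edgeR (adjusted p = 0.0645), although the groups did not overlap, whereas DESeq2 called it at -1.75 (adjusted p = 0.0393). It was -2.04 with an adjusted p of 0.0438 without female M-Z- replicate 4. Within males it was -1.07 ± 0.45 (adjusted p = 0.496), and -1.84 without replicate 3 of the M-Z- males (adjusted p = 0.0549), with 0.196% and 0.15% of genes called in females and males.

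With Zfp57 lost from the oocyte alone, Rasgrf1 did not differ from M+Z+ beyond the spread between embryos. M-Z+ females had 0.968 ± 0.232 CPM (SD, n = 3) and M-Z+ males 1.32 ± 0.440 (n = 3), close to or above the M+Z+ means. Over both sexes the log2 change from M+Z+ was 0.07 with a 95% interval of -0.40 to 0.55 and an adjusted p of 0.924 in edgeR, where 0.0759% of genes were called. In females it was 0.03 (-0.57 to 0.64) and in males 0.15 (-0.66 to 0.96), with 0.0593% and 0.048% of genes called. The intervals exclude a fall as deep as the estimate for M-Z- in each sex. The sign of these small differences turned with the embryo left out, in females without M-Z+ replicate 1 (-0.18) or M+Z+ replicate 5 (-0.00047) and in males without M-Z+ replicate 1 (-0.02).

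**Figure D2:**
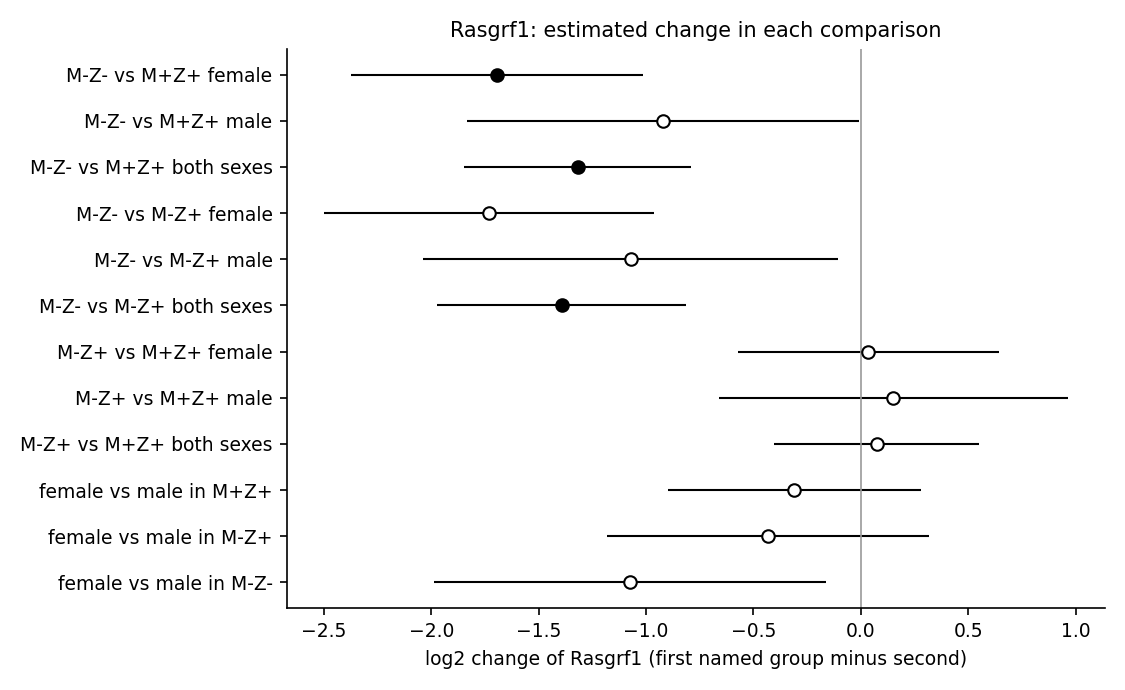
Log2 change of Rasgrf1 in 12 comparisons with 95% intervals from edgeR, first group minus second. Filled points passed the adjusted p and size thresholds, and these are M-Z- against M+Z+ in females and in both sexes and M-Z- against M-Z+ in both sexes.

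The study asked whether the sexes differ in their response to loss of Zfp57. By bisulfite sequencing of clones it found less methylation at the Rasgrf1 control region in male than in female M-Z- embryos. It drew no result from Rasgrf1 RNA, which was below its limit of 1 TPM. The RNA means here had the other order, and their relation to methylation was not tested. The mean of Rasgrf1 was lower in females than in males of every genotype, by -0.31 on the log2 scale in M+Z+, -0.43 in M-Z+ and -1.07 in M-Z-. None of the 3 differences passed in edgeR, with adjusted p-values of 0.946, 0.660 and 0.224 and unadjusted ones of 0.287, 0.247 and 0.0230. DESeq2 gave unadjusted p-values of 0.333, 0.296 and 0.0286, and an adjusted p, of 1, for M+Z+ alone. Between the sexes 0.0817%, 0.222% and 0.309% of genes were called in these genotypes at a log2 change of at least 0.3. In M+Z+ the female values reached from 0.834 to 1.15 CPM and the male values from 0.930 to 1.35, and the exact two-sided permutation p of 0.0476 was 0.114 after adjustment. In M-Z+ and M-Z- the exact p-values were 0.3 and 0.229. Leaving out single embryos moved the difference between -0.68 and -0.25 in M-Z+ and between -1.39 and, without male M-Z- replicate 3, -0.30 in M-Z-. The test of the difference itself, the sex by genotype interaction, gave -0.76 with a 95% interval of -1.84 to 0.32 for M-Z- against M+Z+. In that interaction 0 of 17139 genes were called by edgeR and 0 by DESeq2, with 1107 and 1151 at an unadjusted p below 0.05. With male M-Z- replicate 3 left out the interaction was 0.01, so the female and male estimates then matched to the second decimal, at -1.69 and -1.69. This embryo was singled out for its high value. Over all omissions of a single embryo the interaction lay between -1.07 and 0.01.

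**Figure D3:**
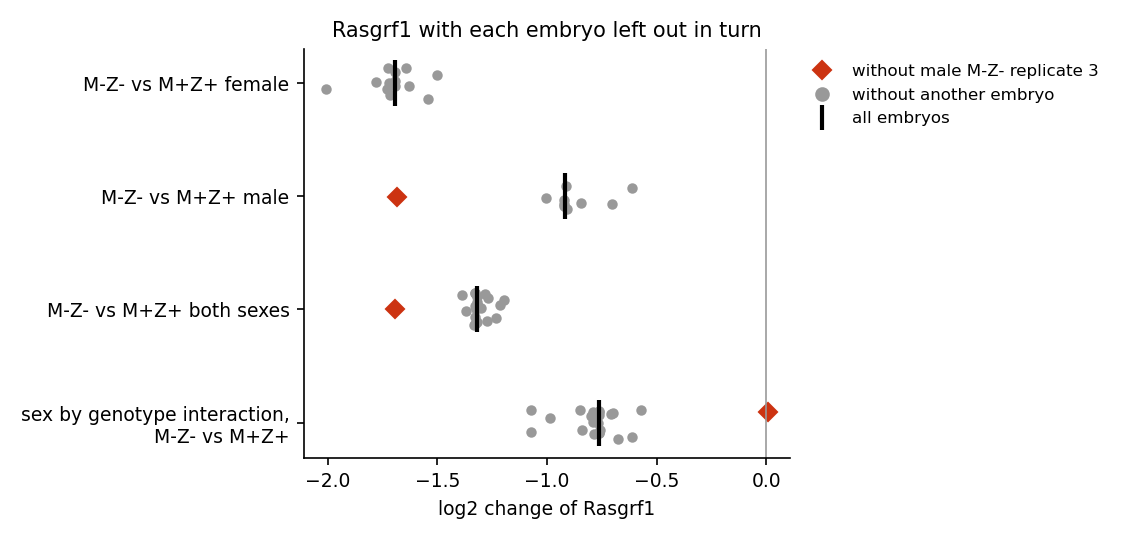
Log2 change of Rasgrf1 in M-Z- against M+Z+ embryos, and its difference between the sexes, with each embryo left out in turn. The black bar is the value with all embryos, and without male M-Z- replicate 3 (diamond) the male change moves to -1.69 and the difference between the sexes to 0.01.

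The spread between embryos is set here beside the spread that counting alone gives, as a description without a test. In female M+Z+ embryos the coefficient of variation was 15.8%, where Poisson counting at these depths gives 24.5%. In male M+Z+ it was 14.9% against 21.7%, in female M-Z+ 23.97% against 24.03%, and in female M-Z- 46.6% against 42.7%. In male M-Z+ it was 33.3% against 22.03%, and in male M-Z- 74.2% against 32.2%. The 95% counting interval of male M-Z- replicate 3 reached from 0.654 to 1.75 CPM, and those of replicates 1 and 2 from 0.102 to 0.735 and from 0.135 to 0.798. These intervals meet, and edgeR's biological coefficient of variation for Rasgrf1 was 0.249 in males and 0.149 in females.

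Replicate 3 was not an M+Z+-like embryo throughout. Its Zfp57 was 28.3 CPM, inside the M-Z- range. Dlk1, a growth regulator whose control region is also methylated on the paternal allele, was at 166 CPM there, at 99.9 and 116 CPM in the other male M-Z- embryos and at 627 to 812 CPM in male M+Z+. Rtl1, a retrotransposon-derived gene of the same cluster, was at 0.982 CPM in replicate 3 and at no less than 8.28 CPM in any M+Z+ embryo.

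Allele-assigned reads could not be used for Rasgrf1. The paternal and maternal tables held 0 of its reads in each of the 19 embryos with usable columns, although these embryos had 286 Rasgrf1 reads in all. The study reports that Rasgrf1 has no exonic variant between the strains in these hybrids. Counting 3 reads as what a count of 0 allows, the rate of assignment was at most 1.05%, where 15.8% of all reads were assigned. Of 15770 genes at least as deeply covered, 5608 likewise had no allele-assigned read. No share of the paternal allele is therefore given, and the fall in total reads cannot be split between the alleles.

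Among genes of regions that are methylated on the paternal allele, the paternally expressed genes of the Dlk1 cluster fell in M-Z- embryos as Rasgrf1 did. The list holds 5 paternally expressed genes, and 4 of them were called lower in M-Z- embryos over both sexes, where 1.24% of all genes were, with a median log2 change of -1.68 against 0.00 over all genes tested. Besides Rasgrf1 these were Dlk1 at -2.45 ± 0.10, Rtl1 at -4.18 ± 0.23 and Dio3, a deiodinase that inactivates thyroid hormone, at -1.68 ± 0.13. Igf2, the fetal growth factor, had -0.15 ± 0.05 and did not pass (adjusted p = 0.0718 in edgeR). Of the 4 called, Rasgrf1 had the smallest estimate and the largest standard error.

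Of 4 maternally expressed genes of these regions, 3 went the other way. The non-coding RNAs Meg3, Rian and Mirg rose by 1.18 ± 0.11, 0.90 ± 0.05 and 1.23 ± 0.07 over both sexes, beside 0.957% of all genes called higher. H19, the non-coding neighbour of Igf2, had 0.09 ± 0.08 and did not pass. Meg3, Rian and Mirg lie in the same imprinted region as Dlk1, Rtl1 and Dio3. Besides Rasgrf1, the genes called in both lists thus came from a single region, so their counts do not stand for separate regions. In males alone the 3 genes Dlk1, Rtl1 and Dio3 of the 5 were called lower, beside 0.126% of all genes, and in females 4 with Rasgrf1, beside 0.279%. These lists were drawn up with earlier results of these data known and are given as a description.

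**Figure D4:**
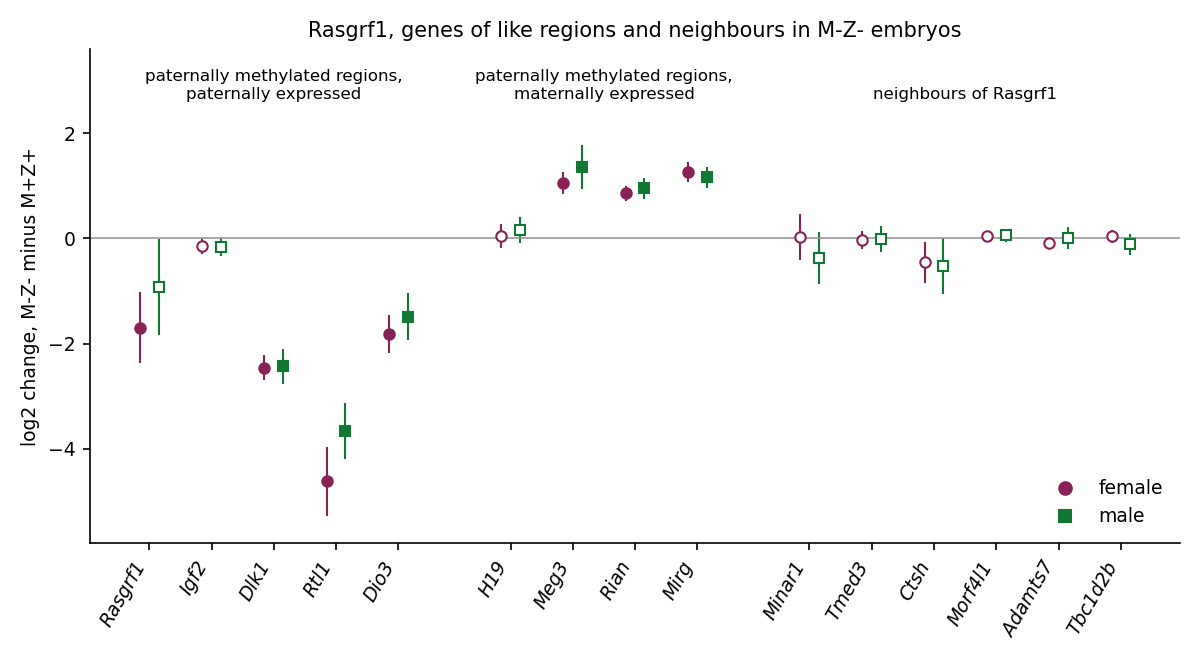
Log2 change in M-Z- against M+Z+ embryos with 95% intervals, for genes of paternally methylated regions and for the neighbours of Rasgrf1 that were tested, in females (circles) and males (squares). Filled points passed both thresholds, and 0 of the 6 neighbours did.

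None of the 6 tested genes around Rasgrf1 passed in the edgeR comparison of M-Z- with M+Z+ over both sexes, with 1 at an unadjusted p below 0.05, and none passed in DESeq2. Over all genes 2.19% were called and 25.4% had such a p, so these counts do not set the neighbours apart. The nearest gene upstream, 4930524O08Rik at 45.7 kb, had 0 reads in all embryos, and Mir184, a microRNA gene, Ankrd34c and Gm28703 were too low to test. Downstream, Ctsh, a lysosomal protease 27.3 kb beyond the end of Rasgrf1, had the largest change of the 6 neighbours tested, -0.48 ± 0.16 over both sexes in M-Z- (adjusted p = 0.0519 in edgeR), and did not pass. Its levels were 11.1 ± 3.05 CPM (SD, n = 10) in M+Z+ and 7.88 ± 2.28 (n = 7) in M-Z-, which overlap. In male M-Z- embryos Ctsh was at 5.67, 6.36 and 12.7 CPM, highest in replicate 3 as Rasgrf1 was. The other 5 (Minar1, Tmed3, Morf4l1, Adamts7 and Tbc1d2b) had log2 changes between -0.12 and 0.05.

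Reads of both alleles were counted at Ctsh and Tmed3, and nearly all reads at Tbc1d2b were maternal. The P-score is the paternal share of allele-assigned reads minus 0.5. For Ctsh it was 0.05 ± 0.10 (SD, n = 6 embryos) in M+Z+ and -0.02 ± 0.12 (n = 7) in M-Z-, and for Tmed3, a trafficking protein of the secretory pathway, 0.04 ± 0.03 and 0.02 ± 0.01. Tbc1d2b was at -0.50 ± 0.01 in M+Z+ and -0.50 in every M-Z- embryo, from 16 to 56 allele-assigned reads per embryo, and so few of its 24639 reads in these embryos that the share may not stand for the gene. Dlk1, with 256 reads or more per embryo, was at 0.42 ± 0.01 in M+Z+ and at 0.02 ± 0.03 in M-Z- embryos.

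Of 8 exchange factors for Ras, Rasgrf1 was the 1 called in M-Z- against M+Z+ over both sexes, where 2.19% of all genes were called, and the median log2 change was 0.00. Its closest relative Rasgrf2, also at a low level (0.587 ± 0.142 TPM in M+Z+, SD, n = 10), had -0.25 ± 0.18 (adjusted p = 0.414 in edgeR). Sos1 and Sos2, the widely expressed exchange factors behind receptor tyrosine kinases, were at 19.7 ± 2.16 and 19.5 ± 1.45 TPM in M+Z+, against 0.473 ± 0.0848 TPM for Rasgrf1. Their log2 changes were 0.01 ± 0.05 and 0.01 ± 0.04. The 4 Rasgrp genes, whose products answer to diacylglycerol, ranged from -0.10 to 0.32.

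Further along the pathway few genes passed. Of 9 Ras and Rac genes 0 were called by edgeR in that comparison, with a median of -0.02. Of 9 GTPase-activating proteins, which switch Ras off, 0 were called, with a median of 0.05. Of 9 Raf, MEK, ERK and KSR genes 0 were called at the size threshold. DESeq2 likewise called 0 in each of these lists, and by either tool 2, 3 and 4 of the genes had an unadjusted p below 0.05, as 25.4% of all tested genes had in edgeR. Among them Map2k1 (MEK1) had 0.22 ± 0.05 and the scaffold Ksr2 -0.38 ± 0.12, with adjusted p-values of 0.0104 and 0.0421 in edgeR but smaller changes than 0.5. Ksr2 was at -0.54 in females, where it was called beside 0.563% of all genes, and at -0.14 in males, where it was not. The adjusted p-values were 0.0360 and 0.762 in edgeR, and the interaction of Ksr2 with sex did not pass (-0.40 ± 0.22, adjusted p = 0.790). Of 12 genes that ERK signalling induces, 1 was called, beside 2.19% of all genes. It was the immediate early gene Egr1, higher by 0.65 ± 0.21 (adjusted p = 0.0429 in edgeR). Egr1 passed in neither sex alone, where it had 0.18 ± 0.10 in females and 1.25 ± 0.36 in males with adjusted p-values of 0.409 and 0.144, and the sex by genotype interaction had an adjusted p of 0.725. Fos, another immediate early gene, had 1.05 ± 0.38 over both sexes and did not pass (adjusted p = 0.0800 in edgeR), with 0.28 in females and 1.80 in males. The negative regulators Dusp6 and Spry2 had 0.05 ± 0.05 in each case.

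Markers of cell types moved in part with Rasgrf1. Of 12 neuron markers 0 were called by edgeR or DESeq2 in M-Z- against M+Z+ over both sexes, with a median of -0.09. Of these markers 5 had an unadjusted edgeR p below 0.05, beside 25.4% of all genes, and their summed level was 2240 to 2550 CPM in M-Z- and 2396 to 2951 CPM in M+Z+ embryos. Of 6 neural progenitor markers and 8 skeletal muscle markers 0 were called by either tool, and 1 and 2 had an unadjusted edgeR p below 0.05, beside the same 25.4%. Of 9 hepatocyte markers, 6 were lower, such as Alb (albumin) at -0.98 ± 0.21 and Afp (alpha-fetoprotein) at -0.60 ± 0.16, in a comparison where 1.24% of all genes were called lower. In either sex alone 0 of the 9 were called by edgeR or DESeq2, with 8 in females and 7 in males at an unadjusted edgeR p below 0.05, beside 15.5% and 17.0% of all genes. Alb was at -0.88 in females and -1.14 in males, with adjusted p-values of 0.0927 and 0.115 in edgeR. Of 8 erythroid markers, the embryonic globins Hbb-bh1, Hbb-y and Hba-x were higher, by 1.89, 1.39 and 1.82, where 0.957% of all genes were called higher. Their changes were 1.17, 0.66 and 1.11 in females and 2.68, 2.22 and 2.57 in males. In edgeR 0 of the 8 passed in either sex alone, with 6 in each at an unadjusted p below 0.05 beside the same shares. DESeq2 called 0 of them in females, beside 147 of 17200 genes, and 2 in males, beside 186 of 16607 genes. The interaction with sex did not pass for these globins (adjusted p of 0.755 to 0.758 in edgeR). Of 6 heart muscle markers Myl7 was higher by 0.53, and of 4 tested pancreatic endocrine markers Gcg (glucagon) fell by 1.29 on the log2 scale. Neither passed in a single sex in edgeR, with Myl7 at 0.43 and 0.67 and Gcg at -1.004 and -1.90 in females and males. Every neuron, hepatocyte and erythroid marker of the lists had reads in every group.

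Male M-Z- replicate 3, the M-Z- embryo with the highest Rasgrf1, also had the highest hepatocyte and the lowest erythroid sum of the M-Z- embryos. The summed hepatocyte markers of the male M-Z- embryos were 2133, 1725 and 4501 CPM, and replicate 3, with 4501 CPM, was close to the male M+Z+ range of 4675 to 6771 CPM. The summed erythroid markers were 10266, 26979 and 5680 CPM, beside 2886 to 5800 CPM in male M+Z+. The lowest was in replicate 3, and the value farthest from the others was in replicate 2. In females the hepatocyte sums were 2506 to 4112 CPM in M-Z- and 3332 to 7166 CPM in M+Z+, which overlap, whereas Rasgrf1 did not. Female M-Z+ replicate 3 had a hepatocyte sum of 2667 CPM with Rasgrf1 at 0.864 CPM. The part of these cell types in the level of Rasgrf1 was not tested.

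**Figure D5:**
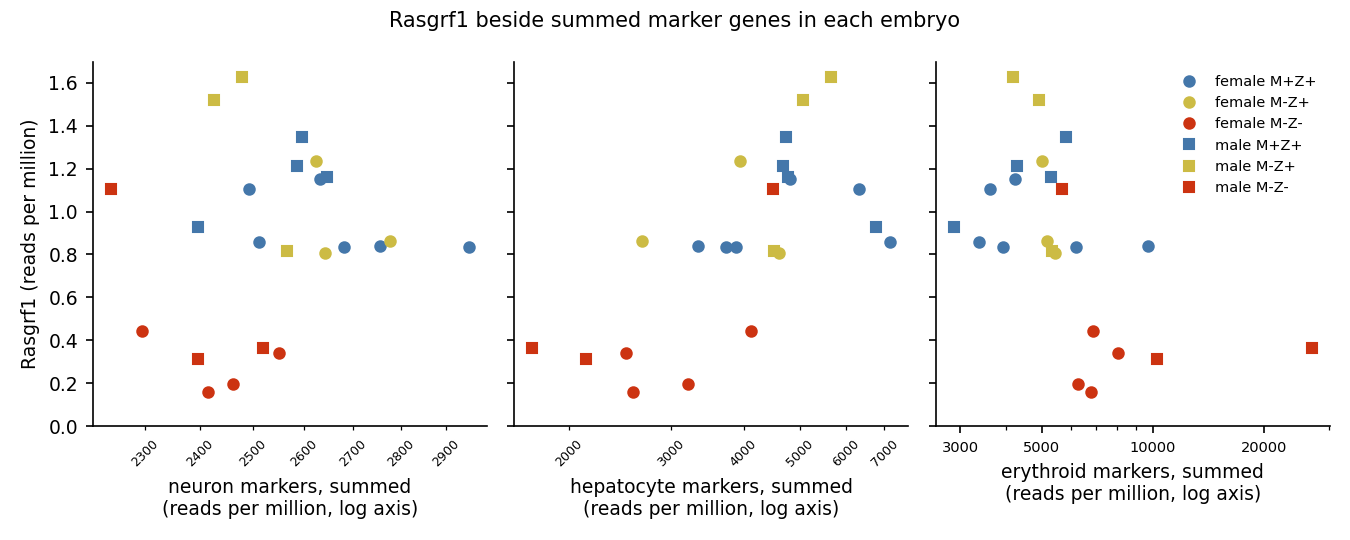
Rasgrf1 in CPM against the summed CPM of 12 neuron, 9 hepatocyte and 8 erythroid markers (log axes), 1 point per embryo. Male M-Z- replicate 3 (red square at 1.10 CPM) has the highest hepatocyte and the lowest erythroid sum of the 7 M-Z- embryos.

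Finally, every gene that averaged 1 CPM or more was ranked by how closely its log2 CPM followed Rasgrf1 over the 23 embryos. Of 15503 genes the 5 closest were Aatk, with a Pearson correlation of 0.88, Dlk1 with 0.85, Klf14 with 0.85, Rtl1 with 0.85 and Rims3 with 0.84. The 5th and 95th percentiles over all genes were -0.51 and 0.54. The points share the genotype groups, so a gene lowered in M-Z- correlates with Rasgrf1 by that alone. Dlk1 and Rtl1 are the paternally expressed genes described above. Klf14 is an imprinted Krüppel-like transcription factor gene on chromosome 6, which the study lists as decreased in M-Z- embryos of both sexes. Aatk encodes a kinase and Rims3 a protein of the presynaptic active zone. Klf14 averaged 8.44 CPM in M+Z+ and 2.703 CPM in M-Z-. Its values in the M-Z- males were 1.32, 1.71 and 7.12 CPM, again highest in replicate 3.

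When each embryo was expressed as its deviation from the mean of its sex and genotype, the closest genes were others. They were Musk, the receptor kinase of the neuromuscular junction, with a correlation of 0.85, Prr32 with 0.84, Magee2 with 0.82, Samsn1 with 0.81 and Abca6 with 0.78. Dlk1 then ranked at place 229 with 0.57. These genes averaged 3.02 to 7.005 CPM in the 3 genotypes, so they too are counted with few reads.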

How the data were processed

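RNA of whole E13.5 embryos was sequenced from TruSeq libraries. Per the submitters' processing notes and the study's methods, the authors trimmed reads, aligned them uniquely to mm9 with STAR 2.7.8a and counted them per gene with featureCounts (Subread 2.0.1), strand-specifically and with reads shared by overlapping genes counted for each. No gene overlaps Rasgrf1 on its strand. The deposited tables hold raw counts, and the deposited allelic tables hold raw counts per parental allele, from reads split at strain variants. The exon length, another deposited column, gave TPM. Columns headed WT were read as M+Z+. Among the allelic columns 8 shared header names and were not used, which leaves 19 embryos.

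CPM is the count over the library total. Genes were tested with edgeR 4.0.16 (glmQLFit, glmQLFTest, TMM, filterByExpr; limma 3.58.1) in R 4.3.3, in a fit of the 3 genotypes of a sex, or of all 23 embryos with sex and genotype. The interaction fit had a mean per group. A call needed a Benjamini-Hochberg adjusted p below 0.05 over all tested genes and a log2 change of at least 0.5 between genotypes or 0.3 between sexes. Mean CPM was compared by exact two-sided permutation, adjusted over 12 comparisons. Scripts were tested on simulated data. P-scores needed more than 10 reads. Intervals are 95%.

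Alternatives were DESeq2 1.42.0, RLE scaling, no filter, a replicate block, fewer M+Z+ embryos, only the compared groups, other scales and leaving out each embryo. Named were Rasgrf1, its pathway, region and marker lists, the 5 nearest genes on each side, and the 5 genes most correlated with it by each of the measures given, on log2 CPM with a prior count of 2. The gene and the lists were chosen with earlier results of these data known. A result for 1 list member is not reported here. The labels do not say that embryos came from separate litters, so p-values measure the spread between these embryos, and intervals of single counts cover counting error only.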

Additional observations from a re-analysis of the deposited data

Results flagged for a closer look

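No value of Rasgrf1 itself stood apart in the 3 groups of 4 or 6 in which this was examined, the M+Z+ embryos of each sex and the M-Z- females. The groups of 3, male M-Z- among them, are too small for that check. Among Rasgrf1, its neighbours and the other genes of paternally methylated regions, 50 groups were examined for a sample far from the others, and 2 values were found, where chance flags about 1 group in 20. Gm28703, a low neighbour of Rasgrf1 that was not tested, was at 0.365 CPM in female M+Z+ replicate 5, far above the other female M+Z+ embryos. Mirg was at 88.3 CPM in female M-Z- replicate 4, above the other female M-Z- embryos.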

How the results depend on the processing

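Of the alternatives tried, those that removed the lower level of Rasgrf1 in M-Z- against M+Z+ embryos from the calls kept its direction. Embryos with the same replicate number were not more alike than others (correlations of their deviations of -0.330 to 0.286 over 10 female pairs and -0.199 to 0.488 over 9 male pairs), so the numbers do not pair them. With a replicate block the female change was -1.68 and its adjusted p 0.144, and no other call for Rasgrf1 changed. With the M+Z+ embryos numbered 4 and above only, the changes were -1.69 in females and -1.38 over both sexes (adjusted p of 0.0563 and 0.0606). DESeq2 called the female change against M-Z+, at -1.75 (adjusted p of 0.0393). Without a minimum log2 change, 1 Ras GTPase-activating protein, 3 Raf-MEK-ERK kinases, 1 neuron marker and 3 heart muscle markers were called. The share of all genes called at that threshold is not given here, so these counts are no result about the lists. The cause of these changes in the calls was not tested. Keeping the M+Z+ embryos numbered 4 and above changes both how many embryos are used and which ones.

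With single embryos left out, the M-Z- against M+Z+ change was -2.01 to -1.50 in females and -1.69 to -0.61 in males, and M-Z- against M-Z+ was -2.04 to -1.52 in females and -1.84 to -0.77 in males. M-Z+ against M+Z+ was -0.18 to 0.14 in females, -0.021 to 0.41 in males and -0.024 to 0.19 over both sexes. The sex by genotype interaction was -1.07 to 0.0068 for M-Z- against M+Z+, -0.37 to 0.063 for M-Z+ against M+Z+ and -0.96 to 0.12 for M-Z- against M-Z+. In the exact permutation test, the difference in CPM was -0.102 to 0.113 for M-Z+ against M+Z+ in females, -0.831 to -0.627 for M-Z- against M-Z+ over both sexes, and -0.304 to -0.165 between the sexes in M+Z+. The call over both sexes was lost without male M-Z+ replicate 1 or 2 or male M-Z- replicate 1 or 2 (adjusted p of 0.0571 to 0.0686), and the call between the sexes was gained without male M+Z+ replicate 3 (0.0357).

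DESeq2 and edgeR called different numbers of genes, with 147 against 95 for M-Z- against M+Z+ in females and 186 against 65 in males, 50 against 33 and 57 against 25 for M-Z- against M-Z+, 15 against 10 and 13 against 8 for M-Z+ against M+Z+, and 130 against 38 and 251 against 53 between the sexes in M-Z+ and M-Z-. They were 414 against 376, 129 against 97 and 11 against 13 for M-Z- against M+Z+, M-Z- against M-Z+ and M-Z+ against M+Z+ over both sexes, and 17 against 14 between the sexes in M+Z+. Other read minimums for the P-score gave no value for Rasgrf1, which had 0 allele-assigned reads. Depth limits each value, since 3 to 28 reads per embryo leave wide counting intervals.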
